A study of Mus musculus with 3 samples.

Results

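CpG-rich promoters that were methylated in mouse embryonic stem (ES) cells lacking the transcriptional repressor REST were collected from a whole genome bisulfite library and then examined in wild type ES cells. A promoter was taken as the 500 bp on either side of the annotated transcription start site (TSS) of an autosomal protein-coding gene in mm9, and was called CpG-rich when at least 40 CpGs were listed in it in any of the 3 libraries. A promoter was kept when at least 10 of its CpGs had a coverage of 5 to 96 in the REST knockout library and at least 50% of the observations at those CpGs were methylated. The rule was met by 20 promoters of the 10851 CpG-rich promoters measured in REST knockout cells, and the series holds 21418 promoters of autosomal protein-coding genes in all. The REST knockout methylation of the 20 promoters is therefore the value they were selected on, and it is given as a description without a test.

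The knockout library was made by whole genome bisulfite sequencing (WG-BisSeq) of REST knockout ES cells from Black Agouti 129 blastocysts, which is 1 library of 1 line. Wild type ES cells of a mixed 129-C57Bl/6 background were represented by 2 replicates of CTCF ChIP-BisSeq, that is, bisulfite sequencing of the DNA precipitated with an antibody (anti-CTCF from SantaCruz) against the insulator protein CTCF. Each ChIP library pooled the DNA of several immunoprecipitations, and nothing in the labels places the 2 replicates in separate cultures. Both kinds of cells were grown with serum and LIF on feeder cells or gelatine. Genotype, strain and assay differed together between the libraries and cannot be told apart in any comparison of REST knockout with wild type. The files give no reads, only the observations and the methylated observations of each CpG.

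Methylation of cytosines at CpGs is established and copied by DNA methyltransferases, and most CpGs of mammalian genomes carry it. Promoters with many CpGs are the common exception and usually stay unmethylated whether or not their gene is transcribed. Promoters of genes that are used only in germ cells form a known class of CpG-rich promoters that can be methylated in the embryo and in somatic cells.

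The libraries held 273375318 observations for REST knockout, 13411280 for wild type replicate 1 and 25262179 for wild type replicate 2, with a median coverage of 6, 3 and 2 per listed CpG. Over CpGs with a coverage of up to 96, 54.4% of observations were methylated in REST knockout cells, against 46.3% and 52.1% in the wild type replicates. Each share is over the CpGs that its own library listed, and these sets are unlike. In the Rest gene, 3 of the 35 CpGs of exon 2 and 3 of the 41 CpGs of exon 3 were listed in the knockout library, with 3 and 12 observations. Exon 1 had 1160 observations in the knockout library, and over exons 2 and 3 wild type replicate 2 had 119 and 173 observations and replicate 1 had 0 and 28. Which exons the knockout removes is not given in the sources used here. No RNA was measured, so the cell type could be checked only through promoters. Promoters of 10 of 12 ES cell marker genes were below 20% in REST knockout cells, among them Sox2 at 2.39%. The exceptions were Esrrb at 72.5% and Dppa3 at 52.1%. Of the 12, 4 were CpG-rich by the rule, Sox2 among them, and only 1.94% of all 10851 CpG-rich promoters reached 20%. Low values at these 4 therefore say little about cell type. Of 10 marker genes of fibroblasts, the usual feeder cells, 8 had promoters measured in the knockout library, and 3 of these were below 20%. These included the CpG-rich promoters of Fn1 (3.97%) and Vim (4.87%). The share of feeder cell DNA in the libraries was not measured.

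The promoters of Dpep3, Tuba3a, Dazl and Traip show what the sequences of such regions look like, each over 300 bases around the TSS, 5′ to 3′ in the direction of transcription, in mm9 and with every CpG in capitals. Dpep3 had the most wild type observations of the 7 members on a list of germline genes (chr8:108503170-108503469, minus strand, 18 CpGs), and 84.1% of 403 observations in this stretch were methylated in REST knockout cells and 73.4% of 561 in wild type cells. Traip was the promoter that was methylated in REST knockout cells and not in wild type cells (chr9:107853144-107853443, plus strand, 22 CpGs), with 42.0% of 826 and 0 of 68 observations. Dazl (chr17:50432775-50433074, minus strand, 31 CpGs) and Tuba3a (chr6:125235911-125236210, minus strand, 18 CpGs) were added after their values had been seen, as the densest of the shown promoters and the one with the highest wild type methylation.
Dpep3: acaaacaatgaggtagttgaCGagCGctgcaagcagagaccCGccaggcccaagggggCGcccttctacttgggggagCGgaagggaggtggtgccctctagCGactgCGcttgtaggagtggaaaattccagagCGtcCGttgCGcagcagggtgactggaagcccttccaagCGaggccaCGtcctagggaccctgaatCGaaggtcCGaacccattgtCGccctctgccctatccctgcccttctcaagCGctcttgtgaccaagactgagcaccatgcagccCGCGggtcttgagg
Tuba3a: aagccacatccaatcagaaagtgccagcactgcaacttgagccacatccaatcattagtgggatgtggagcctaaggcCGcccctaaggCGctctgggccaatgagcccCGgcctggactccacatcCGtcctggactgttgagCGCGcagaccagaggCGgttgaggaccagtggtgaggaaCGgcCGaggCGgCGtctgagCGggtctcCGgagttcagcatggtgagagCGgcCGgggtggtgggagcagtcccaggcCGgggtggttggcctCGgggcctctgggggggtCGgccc
Dazl: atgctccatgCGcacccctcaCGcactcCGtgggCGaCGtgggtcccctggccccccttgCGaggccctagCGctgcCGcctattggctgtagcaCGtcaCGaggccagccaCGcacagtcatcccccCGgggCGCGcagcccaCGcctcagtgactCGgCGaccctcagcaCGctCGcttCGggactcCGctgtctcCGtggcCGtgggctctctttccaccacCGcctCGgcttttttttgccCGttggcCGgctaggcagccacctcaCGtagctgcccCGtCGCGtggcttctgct
Traip: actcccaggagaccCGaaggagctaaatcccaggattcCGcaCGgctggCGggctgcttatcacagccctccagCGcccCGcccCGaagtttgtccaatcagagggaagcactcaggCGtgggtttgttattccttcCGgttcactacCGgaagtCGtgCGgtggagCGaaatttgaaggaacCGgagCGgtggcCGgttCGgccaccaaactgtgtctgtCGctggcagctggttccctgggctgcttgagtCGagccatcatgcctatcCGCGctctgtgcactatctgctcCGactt

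Methylation at this level was rare among CpG-rich promoters in REST knockout cells. Of the 10851 promoters, 9675 (89.2%) were below 10% methylated and 966 were between 10% and 20%, and the 20 promoters make up 0.184% of the total. Their methylation ranged from 51.4% to 87.0% with a median of 63.1%, and the median of the 10831 other CpG-rich promoters was 4.55%. The distribution thinned out without a gap at the threshold, as 17 promoters were between 40% and 50%, 7 between 50% and 60%, 8 between 60% and 70%, and 5 at 70% or above. The members just inside the threshold were Traip (51.4%), Zglp1 (51.7%), 4933416C03Rik (51.8%), Trim52 (52.6%) and Ly6k (54.3%). Just outside were Accn1 (49.4%), Pramel1 (49.3%), Tex15 (46.7%), Brdt (46.4%) and Tmprss12 (46.2%). The exact 95% interval of 4 members reached below 50%, so the counts do not settle on which side of the threshold they lie. All intervals here are Clopper-Pearson intervals that treat observations as independent, cover counting error only, and are too narrow to the degree that CpGs share a read or reads are PCR copies.

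**Figure D1:**
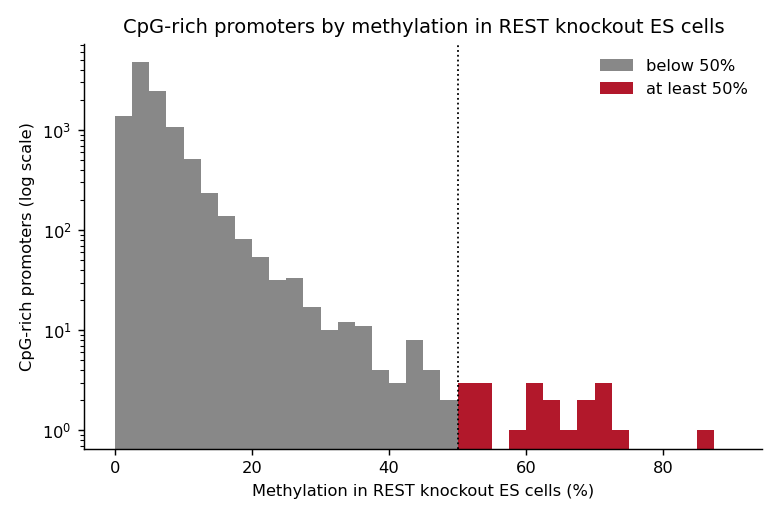
Number of CpG-rich promoters (log scale) by methylation in REST knockout ES cells (%), with the 20 promoters at or above the 50% threshold (dotted line) in red. Most of the 10851 promoters lie below 10%, and the promoters beyond 50% reach 87.0%.

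In wild type ES cells, whose methylation was not used to choose them, most of these promoters were methylated as well. Of the 20 promoters, 18 had at least 20 wild type observations with the replicates pooled, and Gm6685 (10 observations) and Gm10110 (19 observations) did not. The pooled wild type methylation of the 18 had a median of 66.5% and quartiles of 60.4% and 76.0%, and the median over 10823 other CpG-rich promoters was 3.52%. By the exact 95% interval, 13 of the 18 promoters (72.2%) lay above 50%, while 0.138% of the 10841 CpG-rich promoters measured in wild type did so. Traip lay below 50%, as did 99.5% of all CpG-rich promoters, and the intervals of Syce3, Gm9008, Trim52 and Zglp1 included 50%. These 13 promoters were 13 of only 15 that passed in wild type, and the other two were Tex12 and Nap1l5.

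The wild type replicates gave the same picture separately for the promoters that both covered. With at least 20 observations in each replicate, 10 of the 20 promoters had a median methylation of 71.0% in replicate 1 and 64.0% in replicate 2 (67.5% ± 4.95, SD, n = 2). The 10331 other promoters covered in this way had medians of 1.99% and 3.85% (2.92% ± 1.31, SD, n = 2). In replicate 1, 8 of the 10 promoters reached 50%, and 38 of 10350 others did. In replicate 2, 15 of 17 reached 50%, and 15 of 10794 others did. The replicates of a single promoter differed by an SD between 0.118 and 34.8 points, with a median of 8.09 points over the 10 promoters.

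**Figure D2:**
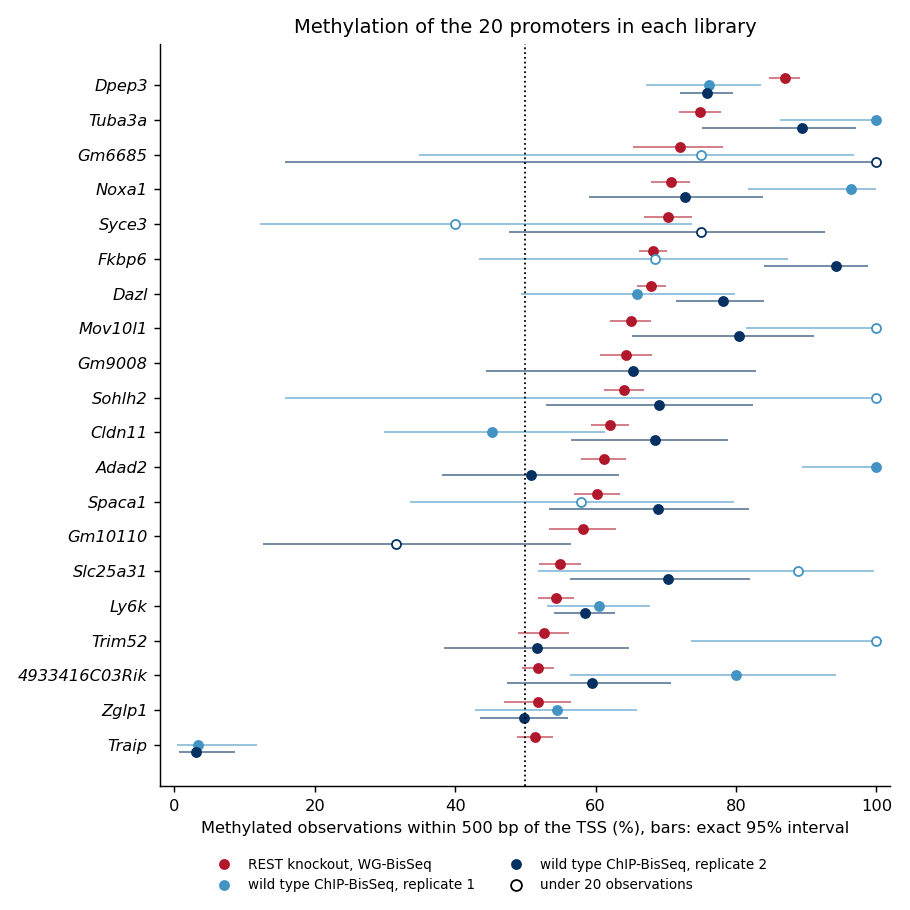
Methylation (%) within 500 bp of the TSS for each of the 20 promoters, ordered by REST knockout methylation, in the knockout library (red) and wild type replicates 1 (light blue) and 2 (dark blue). Bars are exact 95% intervals, open points have under 20 observations, and the dotted line marks 50%. Traip is the one promoter with both wild type points near 3%, and wild type intervals are wide at most others.

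Coverage by the ChIP libraries limits these values. Wild type observations per CpG had a median of 1.36 over the 20 promoters and 3.25 over the other CpG-rich promoters, and 12 of the 20 were in the lowest 10% of all CpG-rich promoters. Only Ly6k, Dpep3 and Zglp1 were covered well, at percentiles 91.5, 90.7 and 84.8 of observations per CpG. In the knockout library the 20 promoters had a median of 1006.5 observations, from 204 to 2218, against 1831 for the others.

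Germline genes were the largest named group among the 20 promoters. A list of germline genes held 43 with CpG-rich promoters, and 7 of these were among the 20, namely Dazl, Dpep3, Fkbp6, Mov10l1, Slc25a31, Sohlh2 and Tuba3a. The 43 promoters had a median REST knockout methylation of 20.9%, with 23 of them (53.5%) at 20% or above, while 210 (1.94%) of all 10851 reached 20%. In wild type, 23 of the 43 (53.5%) also reached 20%, as did 2.44% of the 10841 measured promoters, and their median was 23.8% against 3.53% over all. The list was written with earlier results of these data known. By textbook knowledge, Syce3, Adad2, Spaca1, Zglp1 and Ly6k are germ cell or testis genes too, but they were not on the list and are not counted with it.

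Methylation of germline promoters was not uniform. The promoter of Ddx4, the RNA helicase that marks germ cells, had 20.9% in REST knockout cells and 19.3% of 88 observations in wild type. The promoters of Sycp1, Sycp2 and Sycp3, whose products build the synaptonemal complex, had 33.6%, 38.6% and 35.9% in REST knockout cells, and Sycp3 reached 57.3% of 89 observations in wild type. At the other end, 14 of the 43 were below 10%, among them the meiotic recombinase gene Dmc1 (3.13%) and Prdm9 (3.23%), which positions meiotic recombination. The germline list thus ran from 3.13% to 87.0% in the same cells.

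Genes on the remaining lists did not reach the threshold. None of 53 CpG-rich promoters of neuronal REST target genes was among the 20, and their median was 4.71% in REST knockout cells with a highest value of 24.8% at Scn3b. The 38 promoters of imprinted genes had a median of 6.55%, with Peg3 the highest. The 87 promoters of developmental transcription factors had a median of 6.10%, the 23 of Hox genes 8.59%, the 196 of zinc finger genes named Zfp 4.88% and the 32 of housekeeping genes 4.48%. Lists of 9 pluripotency genes (3.09%), 8 trophoblast genes (6.35%) and 24 genes with testis names such as Tex or Spata (6.01%) had no member either, nor did the clustered protocadherins, none of whose promoters was CpG-rich by the rule. Since the rule used these values, the counts describe the lists and test nothing.

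Dpep3, which encodes a membrane dipeptidase of the testis, had the highest methylation in REST knockout cells. The TSS is on chromosome 8 at 108503319 on the minus strand, and the coding sequence starts 128 bp downstream. Of 970 observations, 87.0% (95% interval 84.7% to 89.1%) were methylated in REST knockout cells. In wild type, replicate 1 had 76.1% of 113 observations methylated, and replicate 2 had 75.9% of 532. The wild type replicates differed by less than 1 point, and both were about 11 points lower than REST knockout. Single CpGs were uniform in REST knockout cells, where 37 of 42 were at 80% or above and the lowest was at 66.7%.

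Dpep3 also holds an exact match to the CTCF core motif, which lies 166 bp upstream of the TSS. Within 100 bp of the match, 81.7% of 180 wild type observations and 87.3% of 55 REST knockout observations were methylated. Whether CTCF occupies this match was not tested, since no ChIP input or peak list was used here.

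Tuba3a encodes an alpha-tubulin of the testis and had 74.9% of 833 observations methylated in REST knockout cells. Its TSS is on chromosome 6 at 125236060, and the translation start follows 72 bp downstream. In wild type, all 25 observations of replicate 1 and 89.5% of 38 observations of replicate 2 were methylated, and the pooled 93.7% (84.5% to 98.2%) was the highest of the measured members. Both replicates lay above the REST knockout value.

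The piRNA pathway, which silences transposons in the male germ line, is represented by Mov10l1 and Fkbp6. Mov10l1, an RNA helicase that acts in piRNA biogenesis (chromosome 15, TSS 88813339), had 65.1% of 1045 observations methylated in REST knockout cells. In wild type, all 18 observations of replicate 1 and 80.5% of 41 observations of replicate 2 were methylated. Fkbp6, a peptidyl-prolyl isomerase family member needed in male meiosis (chromosome 5, TSS 135825895), had 68.2% of 2218 observations methylated, with 68.4% of 19 and 94.2% of 52 in the wild type replicates. For Fkbp6 the lower replicate was level with REST knockout, and for Mov10l1 both wild type values were higher.

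Sohlh2 and Slc25a31, also on this list, were measured almost only in wild type replicate 2. Sohlh2, a helix-loop-helix transcription factor of early germ cells (chromosome 3, TSS 54985950), had 64.1% of 1158 observations methylated in REST knockout cells and 69.0% of 42 in replicate 2, with 2 observations in replicate 1. Slc25a31, the ADP/ATP carrier of sperm mitochondria (chromosome 3, TSS 40512777), had 54.9% of 1084 in REST knockout cells, 88.9% of 9 in replicate 1 and 70.4% of 54 in replicate 2. In Slc25a31 the 500 bp upstream of the TSS were at 35.3% and the 500 bp downstream at 60.7% in REST knockout cells, the largest such rise among the 20 promoters.

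Dazl, an RNA-binding protein required for germ cell development, had the most CpGs of the 20 promoters, 72, around its TSS at 50432924 on the minus strand of chromosome 17. In REST knockout cells 68.0% of 1966 observations were methylated (65.8% to 70.0%). Replicate 1 had 65.9% of 41 and replicate 2 had 78.2% of 179, so that the knockout value lay between the wild type replicates. A match to the loose CTCF core pattern lies 64 bp upstream, and within 100 bp of it 95.2% of 63 wild type observations were methylated. Whether this match is a CTCF binding site was not tested.

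Methylation of the Dazl promoter ended sharply inside the gene in all 3 libraries. From 500 bp upstream to 300 bp downstream of the TSS, 72.4% of 1747 observations were methylated in REST knockout cells, as were all 26 observations in replicate 1 and 90.6% of 128 in replicate 2. From 300 bp to 500 bp downstream the values were 32.9% of 219, 6.67% of 15 and 47.1% of 51. From 500 bp to 1000 bp downstream they were 8.74% of 984, 5.25% of 781 and 10.3% of 1018. Wild type coverage of that last stretch, 34.6 observations per CpG, was far above the 3.06 per CpG of the promoter window. Dazl has 2 annotated coding starts. When every annotated start of a gene had to be methylated, Dazl was the promoter that was lost of the 20.

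**Figure D3:**
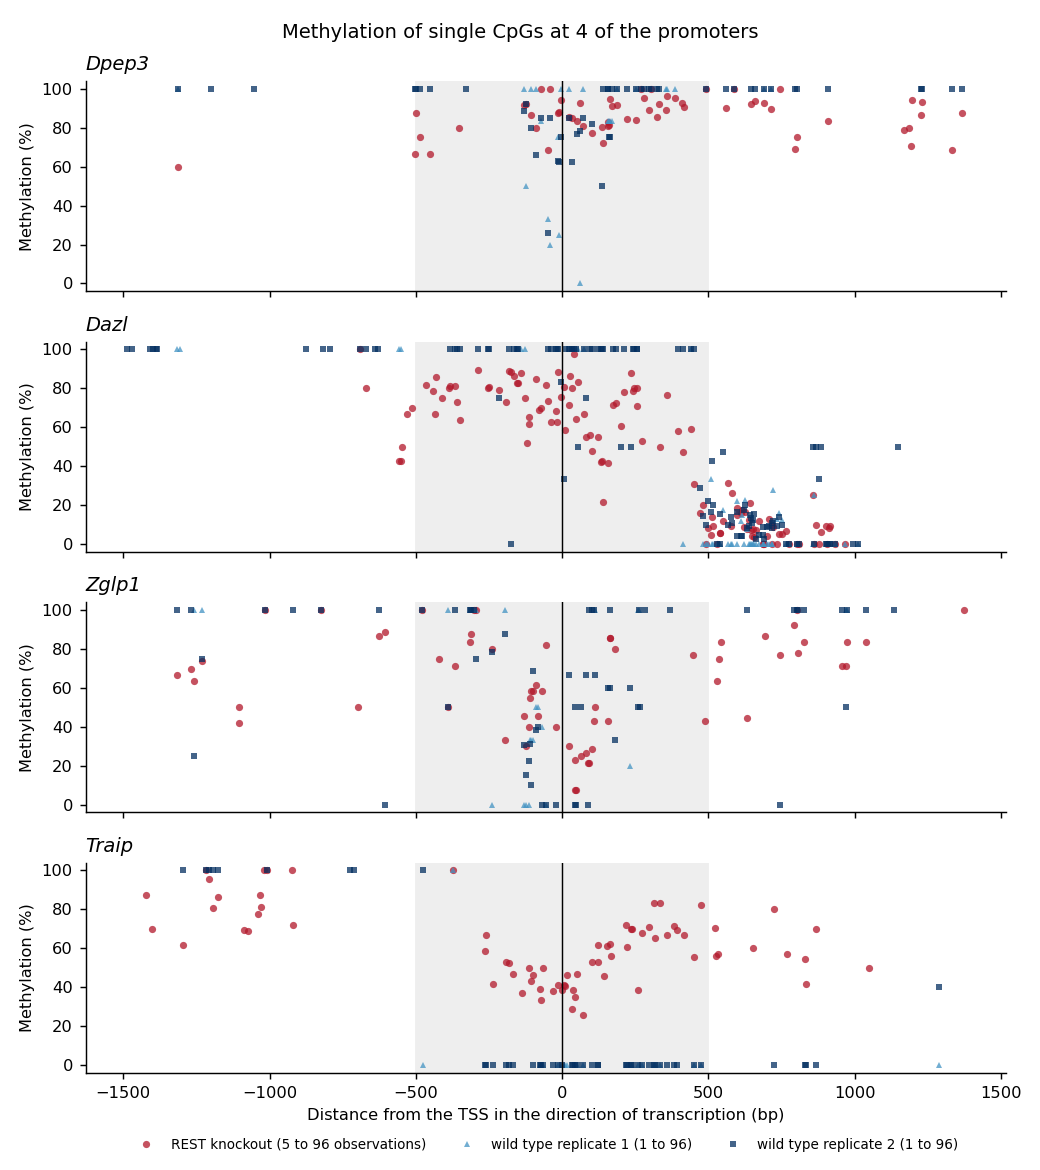
Methylation (%) of single CpGs against distance from the TSS (bp) at Dpep3, Dazl, Zglp1 and Traip, in REST knockout cells (red circles) and wild type replicates 1 (light blue triangles) and 2 (dark blue squares). The promoter window is shaded. Dazl falls to 5.25% to 10.3% from 500 bp to 1000 bp downstream in the 3 libraries, and from 300 bp upstream to 500 bp downstream of Traip the wild type points lie at 0% and REST knockout points between 25.6% and 83.3%.

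Among the promoters outside the germline list, several belong to genes that are known from testis or sperm. Syce3, a component of the synaptonemal complex (chromosome 15, TSS 89240934), had 70.4% of 719 observations methylated in REST knockout cells, and 4 of 10 and 12 of 16 observations in the wild type replicates. Spaca1, a protein of the sperm acrosome (chromosome 4, TSS 34137166), had 60.2% of 867 in REST knockout cells, and 57.9% of 19 and 68.9% of 45 in wild type. For both genes the REST knockout value lay between the replicates. Ly6k, a GPI-anchored protein of the testis (chromosome 15, TSS 74630416), was the best covered in wild type, with 60.6% of 180 and 58.5% of 513 observations methylated. REST knockout cells had 54.3% of 1509 observations methylated at Ly6k. The differences of REST knockout minus wild type were -6.21 and -4.14 points for the replicates, whose SD was 1.47 points (n = 2). The Ly6k window also overlaps the gene model Gm17189.

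Zglp1, a GATA-like zinc finger protein of the gonad, was near 50% in every library. The TSS is on chromosome 9 at 20871537, and the window overlaps the neighbouring gene Fdx1l. REST knockout cells had 51.7% of 431 observations methylated, replicate 1 54.5% of 77 and replicate 2 49.8% of 259. The 3 libraries thus lay within 5 points of each other. In REST knockout cells the 500 bp upstream of the TSS were at 64.7% and the 500 bp downstream at 36.7%. In the same order, methylation was 55.1% of 69 and 4 of 8 in replicate 1, and 45.7% of 199 and 63.3% of 60 in replicate 2. The upstream part was the higher in REST knockout and replicate 1 and the lower in replicate 2. Only 38 of the 44 CpGs were counted in REST knockout cells, with a median coverage of 12.

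Between the wild type replicates, Adad2 and Noxa1 passed the test of a difference, a share close to that of all CpG-rich promoters. By a two-sided Fisher's exact test with Benjamini-Hochberg adjustment over all CpG-rich promoters with at least 20 observations in each replicate, 2 of the 10 promoters differed, and 18.3% of the 10341 tested did. Adad2, a testis member of the adenosine deaminase domain family (chromosome 8, TSS 122136647), had all 33 observations methylated in replicate 1, against 50.8% of 65 in replicate 2 (Fisher's exact test, adjusted p = 5.64e-06), with 61.2% of 917 in REST knockout cells. Noxa1, an activator of NADPH oxidases (chromosome 2, TSS 24950669), had 96.4% of 28 and 72.7% of 55 (Fisher's exact test, adjusted p = 0.0481), with 70.8% of 1043 in REST knockout cells. In both promoters replicate 1 was higher, and over all CpG-rich promoters that differed replicate 2 was the higher in 1509 and replicate 1 in 383. The test compares these libraries, whose difference may be technical. It counts observations as independent, so its p-values are too small where CpGs share a read or reads are PCR copies.

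The wild type replicates were far apart at Cldn11, 4933416C03Rik and Trim52. Cldn11, a claudin of tight junctions in myelin and in Sertoli cells (chromosome 3, TSS 31048868), had 62.0% of 1272 in REST knockout cells and 45.2% of 42 and 68.5% of 73 in wild type. The transcript 4933416C03Rik (chromosome 10, TSS 115550973), which lies within Ptprr, had 51.8% of 1848 in REST knockout cells and 80.0% of 20 and 59.5% of 74 in wild type. Trim52, a tripartite motif gene (chromosome 14, TSS 106505415), had 52.6% of 756, with all 12 observations of replicate 1 and 51.7% of 60 observations of replicate 2 methylated. Replicates of these 3 promoters differed by more than 20 points, so no difference from REST knockout can be read from them. Cldn11 and 4933416C03Rik did not pass the test between replicates (Fisher's exact test, adjusted p = 0.0816 and 0.302). Trim52 was not tested, as replicate 1 had too few observations.

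The gene models Gm6685, Gm9008 and Gm10110 had promoters that are largely repeated in the genome. Of the 971 overlapping 31-base words of each window, 49.5% at Gm6685, 55.5% at Gm9008 and 80.4% at Gm10110 occur elsewhere in mm9. Gm9008 (chromosome 6, TSS 76447778) had 64.4% of 679 observations in REST knockout cells and 65.4% of 26 in replicate 2, with none in replicate 1. Gm6685 (chromosome 11, TSS 28239814) had 72.1% of 204, 6 of 8 and both of 2, and Gm10110 (chromosome 14, TSS 90298273) had 58.2% of 433 and 31.6% of 19 in replicate 2 alone. Reads of these promoters could stem from their copies, and the part of this in their values was not tested. In the other 17 promoters under 10% of the words were repeated, and in 12 none was.

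Traip was the exception among the 20 promoters. Traip encodes a ubiquitin ligase that acts in DNA replication and repair, and its TSS is on the plus strand of chromosome 9 at 107853294, 112 bp before the coding sequence. In REST knockout cells 51.4% of 1507 observations were methylated (48.8% to 53.9%), against 3.39% of 59 in replicate 1 and 3.03% of 99 in replicate 2, a pooled 3.16% (1.04% to 7.23%). The REST knockout value was 48.2 points above wild type, and the replicates differed by an SD of 0.254 points (n = 2). Higher REST knockout methylation by at least 30 points over both wild type replicates was seen at 1 of the 10 promoters covered in both, and at 0.0387% of 10341 CpG-rich promoters, but the rule used the knockout value, so nothing is read from this count. None of the 10 was lower than both replicates by as much, and 0.0193% of the 10341 were.

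Methylation at Traip was spread over the whole promoter. All 48 counted CpGs had methylated observations in REST knockout cells, ranging from 25.6% to 100% with a median of 52.9%. In wild type a single CpG in each replicate, both more than 300 bp upstream, held the methylated observations. From 300 bp upstream to 100 bp downstream, 42.1% of 866 observations were methylated in REST knockout cells and 0 of 34 and 0 of 46 in the wild type replicates. From 100 bp to 500 bp downstream, 63.4% of 634 were methylated in REST knockout cells and 0 of 20 and 0 of 50 in wild type. With 0 of 150 wild type observations in both stretches, a share of up to 2.00% is allowed by 3 counts if observations are independent. The allowed share is higher where CpGs share a read.

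Further upstream of Traip the sequence was methylated in REST knockout cells and in the few observations of wild type replicate 2. From 1500 bp to 1000 bp upstream 83.7% of 239 observations were methylated in REST knockout cells and all 12 in wild type replicate 2. From 500 bp to 1000 bp downstream the values were 60.6% of 109 and 0 of 17 in the same libraries. Wild type replicate 1 had no observations in either stretch. The counts do not say whether methylated CpGs lie on the same DNA molecules, so that partial methylation of all alleles and full methylation of some cannot be told apart.

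Most of the 20 promoters were somewhat less methylated in REST knockout cells than in wild type. The rule used the knockout value, so these differences are a description. Pooled wild type methylation was above REST knockout at 13 of the 18 measured promoters and below it at 5, and the median difference of REST knockout minus wild type was -6.27 points. Over the 10823 other CpG-rich promoters the median difference was 1.00 point, and 61.7% of them were higher in REST knockout cells. Of the 10 promoters covered in both replicates, both replicates were above REST knockout at 4, both were below it at 2, namely Dpep3 and Traip. REST knockout thus lay outside the range of the 2 replicates at 6 promoters and between them at 4, Dazl, Cldn11, Adad2 and Zglp1. Between 3000 bp and 2750 bp upstream of other CpG-rich promoters the median was 65.5% over 5491 promoters in the knockout library. In wild type it was 81.8% over 2816 promoters, with other coverage limits, so the sets are unlike. Over all CpGs with a coverage of up to 96, 54.4% of observations were methylated in REST knockout and 46.3% and 52.1% in the wild type replicates. The libraries listed different CpGs, 16642627 in REST knockout and 2640893 and 7059577 in the wild type replicates. These sets are unlike too, so the order of the shares is no difference at the same CpGs. The part of such library differences in the values of the 20 promoters was not tested.

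**Figure D4:**
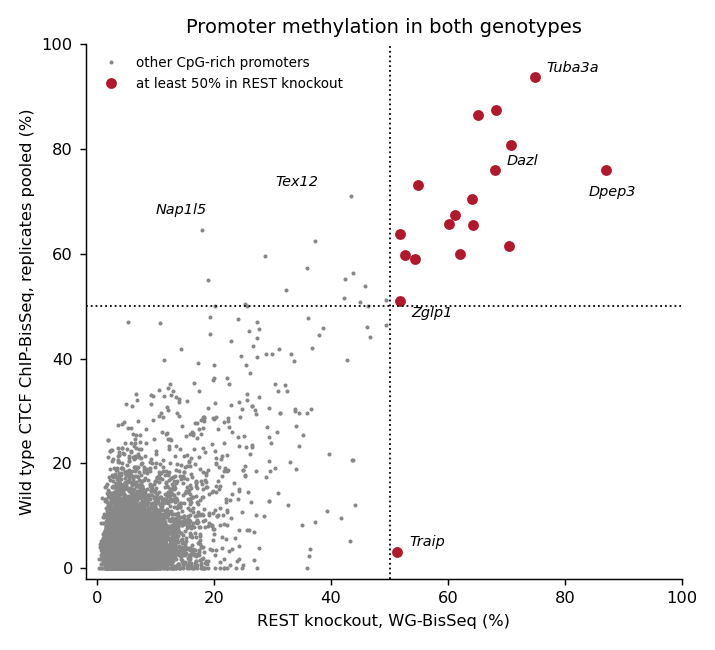
Pooled wild type methylation (%) against REST knockout methylation (%) for the CpG-rich promoters with at least 20 wild type observations, with the promoters chosen in REST knockout cells in red and dotted lines at 50%. Of the 18 chosen promoters shown, 17 lie at 50.9% or above in wild type, and Traip lies at 3.16%.

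Around the TSS the 20 promoters had a shallower dip than the trough that marks other CpG-rich promoters. In REST knockout cells this contrast follows from the rule, which required at least 50% within 500 bp of the TSS. In REST knockout cells their median was 61.1% in the 250 bp upstream of the TSS and 62.5% in the 250 bp downstream, against 4.82% and 3.84% at other CpG-rich promoters. At 3000 bp to 2750 bp upstream, where 8 of the 20 promoters had enough observations, the median was 79.6%, and at other CpG-rich promoters it was 65.5%. In wild type the 250 bp on either side of the TSS had medians of 66.7% over 15 of these promoters and 65.6% over 16, against 2.00% and 2.04%. Within the promoters, 12 of 20 had no CpG at or below 20% in REST knockout cells. Of the 912 counted CpGs, 217 (23.8%) were at 80% or above, 18 (1.97%) at 20% or below, and 677 (74.2%) in between. The part upstream of the TSS was the higher in 10 promoters and the part downstream in the other 10.

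**Figure D5:**
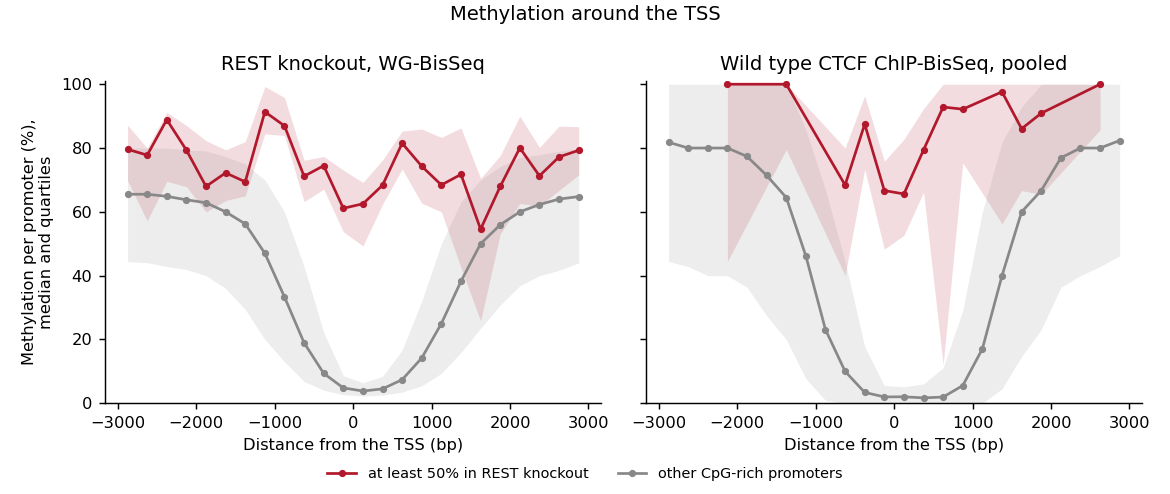
Median methylation (%) per promoter, with quartiles shaded, in 250 bp bins of distance from the TSS (bp, in the direction of transcription) for the 20 promoters (red) and other CpG-rich promoters (grey), in REST knockout cells (left) and pooled wild type (right). Bins with at least 5 promoters of at least 5 observations are drawn. Other promoters fall to medians of 3.84% and 2.04% just downstream of the TSS, where the 20 promoters have 62.5% and 65.6%.

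The 20 promoters had fewer CpGs than other CpG-rich promoters. They held 40 to 72 CpGs with a median of 47 in mm9, against 70 in the others, and the ratio of observed to expected CpGs had a median of 0.594 against 0.770. Their GC content had a median of 57.3%, and that of the others was 61.1%. The 6027 other CpG-rich promoters with up to 72 CpGs, all below the threshold by the rule, had medians of 5.74% in REST knockout cells and 3.76% in wild type. Of the genes, 13 had a single annotated coding start, and the windows of 3 overlapped another gene.

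Short motifs were counted in the promoter windows on both strands. The E-box CACGTG was found in 7 of the 20 promoters (35.0%) and 22.1% of the others, among them Dazl, Fkbp6, Mov10l1 and Slc25a31. The E2F motif TCCCGC was found in 10 promoters (50.0%) and 76.7% of the others, and the GC box GGGCGG in 16 (80.0%) and 92.7%. The motif TGCCGC of the imprint regulator ZFP57 was found in 5 (25.0%) and 55.7% of the others, the cAMP response element TGACGTCA in 1 (Trim52) and 4.97%, and the palindromic NRF1 motif in 0 and 3.07%. The CTCF core was found in Dpep3, Dazl and Gm10110, 15.0% of the 20 and 8.18% of the others. The canonical REST consensus was found in none of the 20 and in 0.443% of the others. The 20 promoters have fewer CpGs, which most of these motifs contain, and the matches are descriptions of sequence only.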

How the data were processed

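For each library the authors deposited 2 whole-number counts per CpG, the observations and the methylated observations, without normalization. Reads had been aligned to mm9, and the submitters' processing notes name Bowtie 0.10.0.1. Whether PCR duplicates were removed is not given in the sources used here. Genes were taken from GENCODE vM1, whose build was the same.

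Each gene was represented by 1 TSS. Methylation was the sum of methylated observations over the sum of observations, over CpGs with a coverage of 5 to 96 in REST knockout and of 1 to 96 in wild type, where replicates were pooled by adding counts. Promoter windows with under 20 wild type observations were left out of the test and of group medians and counts of methylation over whole windows. For single promoters such values are given with their number of observations. Libraries held 13411280 to 273375318 observations.

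Replicates were compared by Fisher's exact test with Benjamini-Hochberg adjustment, which was also run on simulated counts. The simulated counts were independent, so they do not cover CpGs that share a read or reads that are PCR copies. Python 3.11.15, NumPy 2.4.6, pandas 2.3.3, SciPy 1.17.1 and matplotlib 3.10.9 were used.

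The members, the gene lists and the tests were chosen with earlier results of these data known. Named genes were members on any list, the 10 highest in REST knockout, the 5 nearest on each side of the threshold, and those with the most wild type observations above and below 50%. The remaining members, the germline promoters below the threshold and the marker genes were named after their values had been seen. Alternatives changed the threshold, the coverage limits, the CpG minimum, the window, the mean, the choice of TSS and the replicates.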

Additional observations from a re-analysis of the deposited data

How the results depend on the processing

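The number of promoters and their wild type values depended on the definition of a CpG-rich promoter more than on coverage. From 20, the number became 37 at a threshold of 40%, 13 at 60%, 145 with at least 30 CpGs, 7 with at least 50 CpGs, 110 in windows of 250 bp each side with 20 CpGs and 1 in windows of 1000 bp each side with 80 CpGs. With a coverage of 10 to 96 it was again 20, of which 19 were shared, Zglp1 being lost and Accn1 gained. The number above 50% in wild type, 13 of 18 measured promoters, became 14 of 35 and 10 of 12 at thresholds of 40% and 60%. It was 91 of 121 and 5 of 6 with at least 30 and 50 CpGs, and 47 of 61 and 0 of 1 in windows of 250 bp and 1000 bp. The number of measured promoters thus changed along with the count. The count above 50% was 11 of 17 without replicate 1 and 6 of 10 without replicate 2, the wild type library with more observations. The number below 50% in wild type, 1 of 18, became 6 of 35 and 0 of 12 at thresholds of 40% and 60%. It was 2 of 19 without an upper coverage limit and 6 of 121 and 0 of 6 with at least 30 and 50 CpGs. In windows of 250 bp and 1000 bp it was 5 of 61 and 0 of 1. Without replicate 1 or replicate 2 it was 1 of 17 and 1 of 10. The median wild type methylation, 66.5%, became 56.3% and 73.2% at thresholds of 40% and 60%, and 78.3% with at least 30 CpGs. It was 79.2% in windows of 250 bp and 59.3%, the value of 1 promoter, in windows of 1000 bp. Without a replicate it was 68.9% to 71.0%. The number at least 30 points higher in REST knockout, 1, became 2 and 0 at thresholds of 40% and 60%, 3 and 0 with at least 30 and 50 CpGs, and 3 and 0 in windows of 250 bp and 1000 bp, and it was 1 to 1 without a replicate. The number whose replicates differed, 2, became 0 with at least 50 wild type observations, where 4 promoters could be tested. Each of these changes the promoters tested, and no further cause was tested. No paired analysis was possible because only the wild type libraries carry replicate numbers and REST knockout is 1 library. Depth limits the wild type values of single promoters, as 12 of the 20 promoters were in the lowest 10% of CpG-rich promoters by wild type coverage.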

Other observations

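Outside the 20 promoters, Tex12 and Nap1l5 were the CpG-rich promoters with wild type methylation above 50% by interval. Tex12, a synaptonemal complex gene on the germline list, had 43.5% of 2395 observations methylated in REST knockout cells and 81.3% of 16 and 69.6% of 115 in the wild type replicates. Nap1l5, an imprinted gene, had 18.0% of 1353 in REST knockout cells and 77.8% of 27 and 55.3% of 38 in wild type. At Nap1l5 both wild type replicates were far above REST knockout. By the measure of 30 points over both replicates, 2 of 10341 promoters (0.0193%) were lower in REST knockout cells.

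Besides Traip, 3 CpG-rich promoters below the 50% threshold were higher in REST knockout cells than in both wild type replicates by at least 30 points. Adamts5, a protease of the extracellular matrix, had 43.3% of 127 observations methylated in REST knockout cells, 0 of 20 in replicate 1 and 7.14% of 56 in replicate 2. Ppm1k, a mitochondrial phosphatase, had 36.2% of 467, 5.00% of 20 and 0 of 21. The annotated start of Epo, which encodes erythropoietin, had 36.0% of 89, 0 of 42 and 0 of 36. This start (chromosome 5, 137974470) lies 47497 bp from the nearest Epo coding start, and its window holds the TSS of Gnb2 at 137974738. The values therefore describe a window shared with Gnb2 and need not be those of a promoter next to the Epo coding sequence. Wild type coverage was low at all 3, and Adamts5 and Epo were also thinly covered in REST knockout cells.

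Noxa1 holds a match to the loose CTCF core pattern 607 bp upstream of its TSS, outside the promoter window. Within 100 bp of it, 68.6% of 229 wild type observations and 74.3% of 210 REST knockout observations were methylated.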
